A study of Mus musculus with 29 samples.

Results

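The LIM-homeodomain genes Lhx1, Lhx2, Lhx3, Lhx4, Lhx5, Lhx6, Lhx8, Lhx9, Isl1 and Isl2 were examined for binding of Atoh1, Pou4f3 and Gfi1. The members are these 10 of the 22367 protein-coding genes of the mouse annotation, named as a gene family and not by their binding. A peak summit was assigned to a member when it lay in the gene body or within 50 kb of it on the mm9 genome. Summits less than 300 bp apart were joined across lists into sites, which gave 59 sites at the members of 78408 sites in all. Sites carry the name of the gene and a number counted along the chromosome from the lowest coordinate.

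Chromatin immunoprecipitation sequencing (ChIP-seq) was carried out in mouse embryonic stem cell lines derived from the parental line A2loxCre, each carrying doxycycline-inducible transgenes together with the Venus reporter. The line iAtoh1 expressed Atoh1 alone and iPou4f3 expressed Pou4f3 alone, iG+A combined Gfi1 and Atoh1, iG+P combined Gfi1 and Pou4f3, iP+A combined Pou4f3 and Atoh1, and iGPA carried all of Gfi1, Pou4f3 and Atoh1. All libraries came from embryoid bodies (EBs), aggregates of differentiating stem cells, at day 6 after 2 µg/ml doxycycline for 48 h. The FLAG tag of Atoh1 and the MYC tag of Pou4f3 served for precipitation, which leaves out endogenous, untagged Atoh1 and Pou4f3. The Gfi1 antibody recognises the protein and can also take in endogenous Gfi1. Specificity of the tag antibodies was not tested here. The 17 ChIP and 12 input libraries were merged into 9 peak lists, 4 for Atoh1, 4 for Pou4f3 and 1 for Gfi1. The Gfi1 list came from 1 library in iGPA and each other list from 2. Because a line and an antibody have 1 list each, differences between lists have no replicate check and were not tested, and line and list length cannot be told apart. EBs hold mixed cell types and the transgenes are overexpressed, so binding here is binding in that setting.

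LIM-homeodomain proteins are transcription factors that pair a DNA-binding homeodomain with LIM domains, which hold cofactors such as Ldb1 and Ldb2. Combinations of them mark classes of neurons in the spinal cord and brain. Lhx3 is also a marker of hair cells, the sensory cells of the inner ear, whose development needs Atoh1, Pou4f3 and Gfi1.

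The sequences that carry the main observations are the 250 bp windows centred on the summit of the site found in most lists, or of a site with a Gfi1 peak. Capitals mark letters of the AtEAM E-box (the extended E-box associated with Atoh1), of its core (CAGCTG or CAGATG or CATCTG or CATATG), or of the Pou4f pattern (ATAATTAAT with at most 1 mismatch), on either strand. All are plus-strand NCBIM37 (mm9) sequences, and Lhx3 site 3 was added after its values were seen. Lhx3 site 2 is chr2:26023295-26023544 and Lhx3 site 3 is chr2:26024448-26024697. Lhx2 site 8 is chr2:38273544-38273793, Isl1 site 7 is chr13:117099879-117100128 and Isl1 site 3 is chr13:117086361-117086610. Lhx6 site 2 is chr2:35915087-35915336 and Lhx4 site 3 is chr1:157551036-157551285.
Lhx3 site 2: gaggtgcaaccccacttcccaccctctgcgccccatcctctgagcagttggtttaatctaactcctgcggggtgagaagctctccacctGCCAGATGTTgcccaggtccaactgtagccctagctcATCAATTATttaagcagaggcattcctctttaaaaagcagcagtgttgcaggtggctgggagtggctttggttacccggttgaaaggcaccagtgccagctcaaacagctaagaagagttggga
Lhx3 site 3: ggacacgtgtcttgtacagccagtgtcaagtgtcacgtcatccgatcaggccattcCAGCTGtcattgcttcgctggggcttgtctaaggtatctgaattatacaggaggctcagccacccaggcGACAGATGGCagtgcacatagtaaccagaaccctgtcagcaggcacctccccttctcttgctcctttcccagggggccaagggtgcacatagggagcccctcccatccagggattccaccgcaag
Lhx2 site 8: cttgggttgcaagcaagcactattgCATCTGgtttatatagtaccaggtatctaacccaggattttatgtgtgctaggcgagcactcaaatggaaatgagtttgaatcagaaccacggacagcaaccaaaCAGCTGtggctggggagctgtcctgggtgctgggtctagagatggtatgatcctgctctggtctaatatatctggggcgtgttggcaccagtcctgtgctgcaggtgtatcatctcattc
Isl1 site 7: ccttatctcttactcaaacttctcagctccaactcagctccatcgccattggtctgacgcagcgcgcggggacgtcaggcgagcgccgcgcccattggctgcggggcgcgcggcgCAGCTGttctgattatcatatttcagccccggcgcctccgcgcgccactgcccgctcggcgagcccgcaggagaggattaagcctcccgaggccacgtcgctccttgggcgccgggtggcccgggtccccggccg
Isl1 site 3: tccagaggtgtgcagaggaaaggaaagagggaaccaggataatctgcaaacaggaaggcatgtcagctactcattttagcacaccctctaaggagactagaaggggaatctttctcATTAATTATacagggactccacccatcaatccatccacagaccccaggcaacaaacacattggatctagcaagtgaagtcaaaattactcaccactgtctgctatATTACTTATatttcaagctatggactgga
Lhx6 site 2: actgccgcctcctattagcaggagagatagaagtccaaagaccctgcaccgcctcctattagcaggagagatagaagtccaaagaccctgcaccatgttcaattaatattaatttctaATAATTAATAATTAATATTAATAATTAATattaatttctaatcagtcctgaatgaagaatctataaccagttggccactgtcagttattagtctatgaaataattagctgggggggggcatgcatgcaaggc
Lhx4 site 3: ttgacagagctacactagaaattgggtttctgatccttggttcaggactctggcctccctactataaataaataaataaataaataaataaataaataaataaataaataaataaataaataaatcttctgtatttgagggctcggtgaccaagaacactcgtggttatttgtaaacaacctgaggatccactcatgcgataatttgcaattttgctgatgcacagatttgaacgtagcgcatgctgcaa

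In Lhx3 site 2 the AtEAM E-box spans bases 90 to 99 of the window and the Pou4f pattern spans bases 127 to 135, next to the summit. In Lhx3 site 3 the AtEAM E-box spans bases 126 to 135 and a further E-box core spans bases 57 to 62, with no Pou4f pattern. Lhx2 site 8 holds an E-box core at bases 131 to 136 and Isl1 site 7 one at bases 116 to 121, close to the summit at base 126, and neither holds a Pou4f pattern. Isl1 site 3, whose window is centred on a Pou4f3 summit and does not reach the Gfi1 summit, and Lhx6 site 2 hold 2 and 5 overlapping or separate Pou4f matches, and no E-box core. Lhx4 site 3 holds none of these letters and carries a perfect short repeat of 62 bp. A perfect repeat run of at least 40 bp was present in 2 of the 59 member sites (3.39%) and in 2.42% of all sites, the other member site being Lhx9 site 7 with a run of 123 bp.

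Pou4f3 summits were the more frequent class at the members. The 4 Pou4f3 lists together held 88 summits at 9 of the 10 genes, the 4 Atoh1 lists 43 summits at 9 genes and the Gfi1 list 3 summits at 3 genes. Lhx5, a regulator of hypothalamus and forebrain development, had no kept summit within 50 kb in any list and no called peak there that had been left out. Isl1 had the highest total with 22 summits, Lhx3 had 20 and Lhx6 had 19. Of all protein-coding genes, 77.7% had fewer summits than Isl1 and 73.4% had fewer than Lhx3, so these totals were not extreme.

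**Figure D1:**
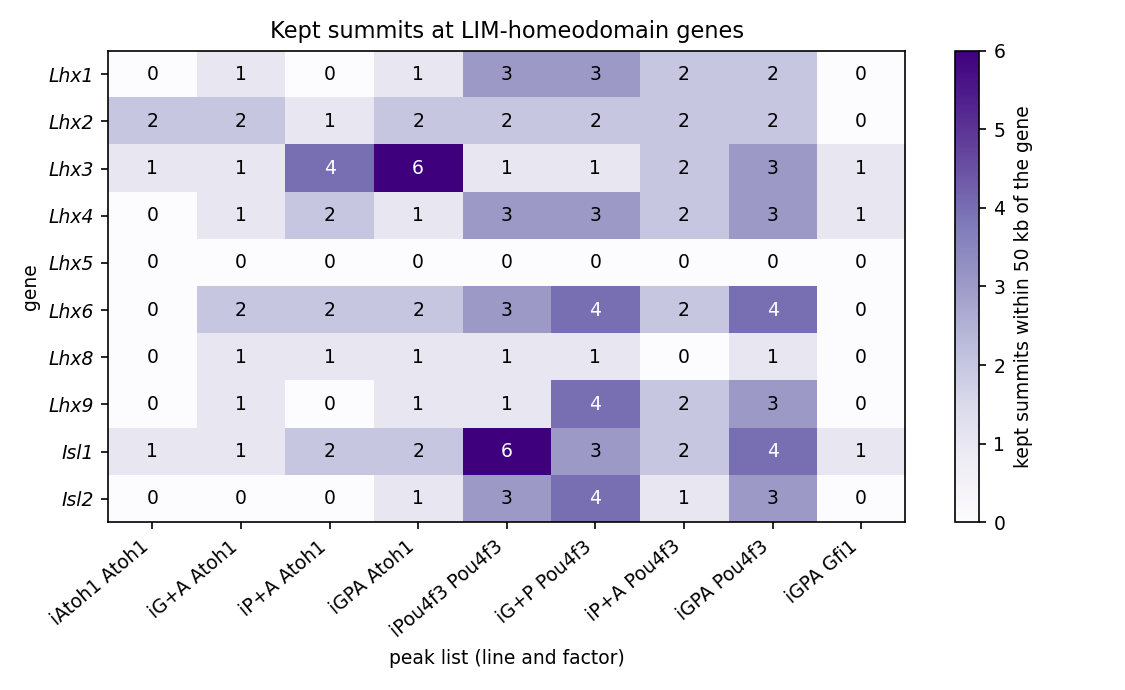
Number of kept summits in the gene body or within 50 kb of each LIM-homeodomain gene (rows) in each of the 9 peak lists (columns). Lhx3 has 6 Atoh1 summits in iGPA against 1 in iAtoh1, Isl1 has 6 Pou4f3 summits in iPou4f3, and Lhx5 is at 0 in every column.

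Atoh1 peaks were sparse at the members when Atoh1 was induced alone. In the iAtoh1 list 3 of 10 members (Lhx2, Lhx3 and Isl1) had a summit, beside 53.1% of all genes. With Gfi1 in iG+A, 8 members had an Atoh1 summit beside 65.7% of genes, and with Pou4f3 in iP+A 6 members had one beside 62.7%. In iGPA 9 members had one beside 72.2%, and Lhx5 was the exception. The summits numbered 4, 10, 12 and 17 in these 4 lists. Per Mb of window this was 3.37, 8.43, 10.1 and 14.3 at the members and 10.3, 14.7, 12.4 and 18.6 over all genes, so the density at the members was below that of all genes in each Atoh1 list.

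Pou4f3 summits were present at 9 members in iPou4f3, iG+P and iGPA and at 8 in iP+A. The share of all genes with a summit was 72.8% for iPou4f3, 76.6% for iG+P, 58.8% for iP+A and 63.2% for iGPA. The member summits numbered 23, 25, 15 and 25. Their density was 19.4, 21.1, 12.6 and 21.1 per Mb against 13.9, 18.7, 9.48 and 9.51 per Mb over all genes. In iGPA the median was 3 Pou4f3 summits per member and 1 per protein-coding gene. The Gfi1 list reached 3 of 10 members (Lhx3, Lhx4 and Isl1) beside 23.2% of all genes. At a stricter −log10 p of at least 10, 8 members kept a Pou4f3 summit in some list, 5 kept an Atoh1 summit and 0 kept a Gfi1 summit. At 20 these numbers were 6, 3 and 0. Shares of all genes are not given at either threshold, so these counts cannot be set against a background.

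The number of Atoh1 summits was compared with that of iAtoh1 gene by gene, so the comparisons share that list. In iG+A 5 members (Lhx1, Lhx4, Lhx6, Lhx8 and Lhx9) held more summits and 0 held fewer, beside 44.6% and 12.2% of all genes. In iP+A 5 members (Lhx3, Lhx4, Lhx6, Lhx8 and Isl1) held more and 1 (Lhx2) held fewer, beside 36.5% and 15.9%. The Lhx6 summits in iG+A and iP+A lay near the starts of the neighbouring genes Ndufa8 and Rbm18. In iGPA 8 members held more and 0 fewer, beside 57.3% and 7.75%. Lhx2 and Lhx5 were the members without a higher count in iGPA. With the Atoh1 and Pou4f3 lists shortened to the same length of 15568 peaks, 4 members held more Atoh1 summits in iGPA than in iAtoh1 in place of 8. No share of all genes is given at this length.

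For Pou4f3 the reference was iPou4f3. In iG+P 3 members (Lhx6, Lhx9 and Isl2) held more summits and 1 (Isl1) held fewer, beside 38.7% and 22.9% of all genes. In iP+A 2 members (Lhx3 and Lhx9) held more and 6 held fewer, beside 12.3% and 48.1%. In iGPA 3 members (Lhx3, Lhx6 and Lhx9) held more and 2 (Lhx1 and Isl1) held fewer, beside 15.1% and 44.0%. With the lists shortened to equal length, 4 members held more Pou4f3 summits in iP+A in place of 2, again with no share of all genes given. Lhx3 had more summits of both factors in both of these lines than in the single-factor lines, as 1 of 10 members beside 2.17% of all genes. This rests on the distance used, since within 10 kb of the gene bodies 0 members held more Pou4f3 summits in iP+A or in iGPA. Shares of all genes are not given at 10 kb.

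**Figure D2:**
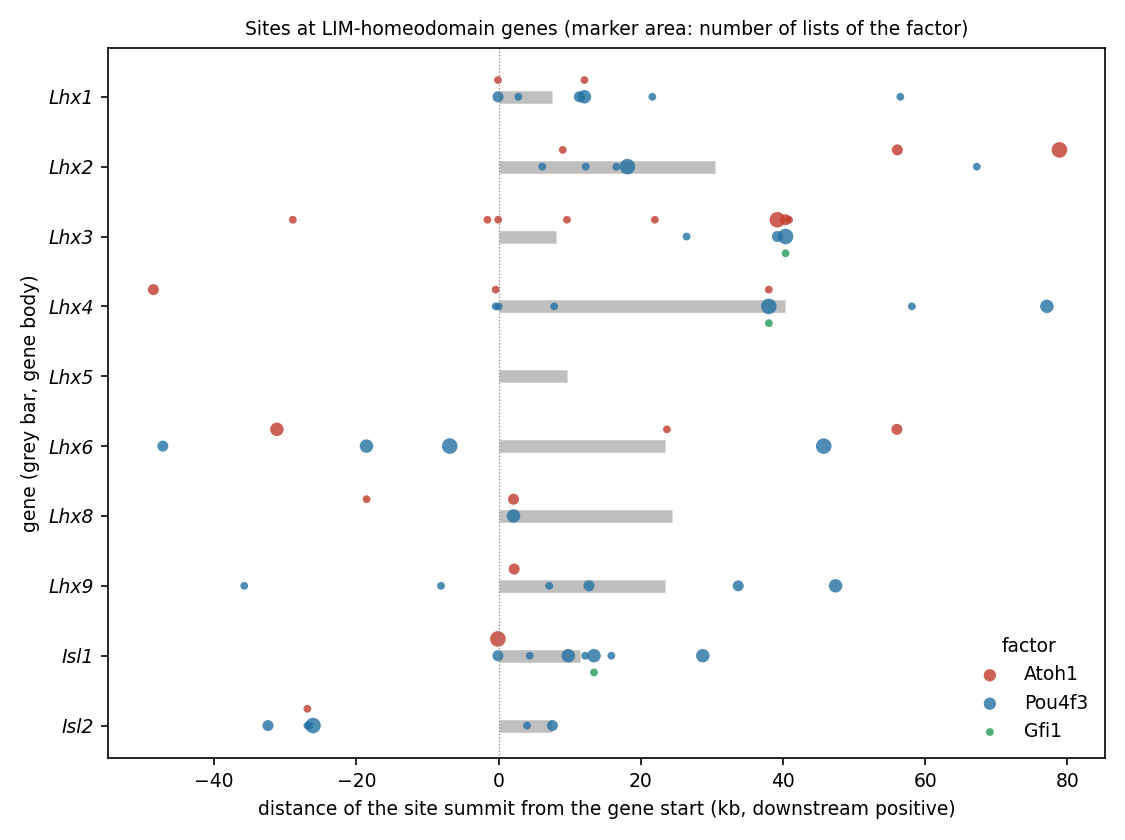
Position of the 59 sites relative to the start of their LIM-homeodomain gene, in kb with downstream positive, coloured by factor, with marker area for the number of lists of that factor and grey bars for gene bodies. Sites of Lhx3 gather about 40 kb downstream of its start, where Atoh1, Pou4f3 and Gfi1 markers lie together, whereas Lhx5 has none.

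Lhx3 and its paralogue Lhx4 act in pituitary and motor neuron development. Lhx3 (ENSMUSG00000026934.8) lies at chr2:26055732-26063769 on the minus strand. Its Atoh1 summits numbered 1, 1, 4 and 6 in iAtoh1, iG+A, iP+A and iGPA, and its Pou4f3 summits 1, 1, 2 and 3 in iPou4f3, iG+P and the same last pair of lines. The lists with both Pou4f3 and Atoh1 induced therefore held the most summits of either factor at this gene. Of the 9 Lhx3 sites, 6 occurred in 1 Atoh1 list and in no other list.

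Lhx3 site 2 lay 40.3 kb downstream of the gene start in intergenic sequence and occurred in 7 lists, more than any other member site. Gm13553 had the nearest annotated start, 23778 bp away. Atoh1 had no peak there in iAtoh1 or iG+A. Its fold enrichment over local background was 4.52 (95% Poisson interval 3.27 to 6.09) in iP+A and 11.4 (9.25 to 14.0) in iGPA. These values stood above 84.8% and 97.3% of the kept peaks of their lists, and this share of lower peaks is called the rank, since fold values of different lists are not on 1 scale. Pou4f3 fold enrichment was 18.6 (15.6 to 22.2) for iGPA, 4.19 for iP+A, 8.43 for iG+P and 7.01 for iPou4f3. Pou4f3 was thus present with and without induced Atoh1, and Atoh1 in the lists from lines with induced Pou4f3. Gfi1 had a fold enrichment of 4.12 (2.56 to 6.32), above 35.9% of its list. The pattern of Atoh1 in iP+A and iGPA and in neither of the other lines was found at 2 of the 59 member sites (3.39%) and at 4.52% of all sites, the other member site being Lhx8 site 1.

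Lhx3 site 3 lay 39.2 kb downstream and occurred in 6 lists. Atoh1 fold enrichment was 4.28 (3.00 to 5.93) for iAtoh1, 7.34 (5.55 to 9.54) for iG+A, 11.7 (9.64 to 14.1) for iP+A and 15.1 (12.6 to 18.0) for iGPA. The rank within the list was 83.1% for iAtoh1, 96.3% for iG+A, 99.3% for iP+A and 98.8% for iGPA. Pou4f3 had peaks in the lines that also expressed Atoh1, with a fold enrichment of 4.19 in iP+A and 10.3 in iGPA, and none in iPou4f3 or iG+P. The neighbouring sites 2 and 3 therefore had opposite lists missing, Atoh1 in lines without Pou4f3 at site 2 and Pou4f3 in lines without Atoh1 at site 3. The pattern of Pou4f3 in iP+A and iGPA and in neither of the other lines was found at 2 of the 59 member sites (3.39%) and at 0.886% of all sites, the other member site being Lhx9 site 2. The Pou4f pattern is in the window of site 2 and not of site 3, and both windows hold an AtEAM E-box. Whether these letters bear on the lists was not tested. Intervals cover counting error only, and a list without a peak does not give a value for that line.

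**Figure D3:**
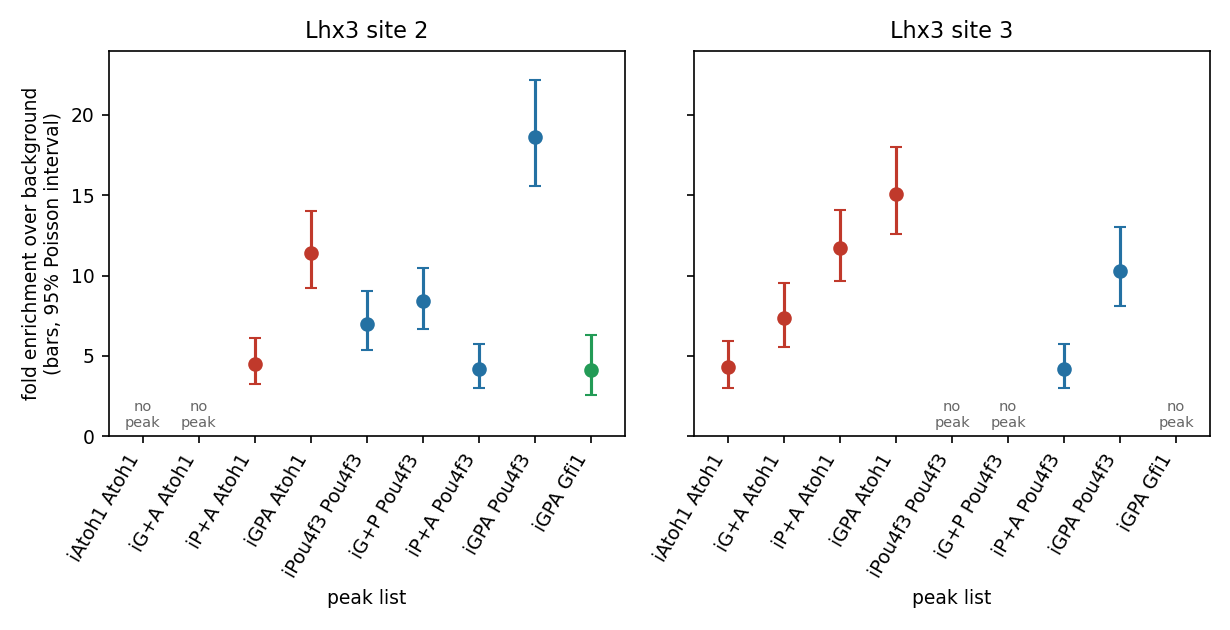
Fold enrichment over local background (vertical axis) at Lhx3 site 2 and Lhx3 site 3 in each peak list, with 95% Poisson intervals of the fragment count. Site 2 has no Atoh1 peak in iAtoh1 and iG+A and reaches 18.6 for Pou4f3 in iGPA, whereas site 3 has Atoh1 peaks in all 4 lists and no Pou4f3 peak in iPou4f3 and iG+P.

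The other Lhx3 sites were weaker. Site 7 lay 60 bp upstream of the gene start and site 8 lay 1580 bp upstream, and both had an Atoh1 peak in iGPA only, with fold enrichments of 2.95 and 3.45. Site 6, 9.60 kb downstream, carried Atoh1 in iP+A (3.66), and a called iGPA Atoh1 peak with fold 2.95 at its position was not among the kept summits. Site 9, 29.0 kb upstream in a coding exon of Qsox2, had an Atoh1 peak in iP+A (2.58). Site 1 and site 5 were in the iGPA Atoh1 list only (3.20 and 3.32), and site 4 was in the iGPA Pou4f3 list only (4.37).

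Lhx4 (ENSMUSG00000026468.6) lies at chr1:157548827-157589157 on the minus strand. Its Pou4f3 summits numbered 3, 3, 2 and 3, and its Atoh1 summits 0, 1, 2 and 1 in the order of lines used for Lhx3. Lhx4 site 3, in an intron 38.0 kb from the start, occurred in 6 lists. Pou4f3 fold enrichment there was 4.16 for iPou4f3, 3.06 for iG+P, 2.83 for iP+A and 3.06 for iGPA, Atoh1 was at 3.01 for iP+A and Gfi1 at 4.18. Its ranks ran from 8.58% to 72.5%, and the site sits on the 62 bp repeat printed above. Whether the repeat bears on these peaks was not tested. Lhx4 site 1, in an intron of Acbd6, reached a Pou4f3 fold of 6.41 for iGPA, 3.72 for iG+P and 2.60 for iP+A. Lhx4 site 7, in an intron of Qsox1, had Atoh1 peaks in iG+A (3.20) and iGPA (3.94) and an AtEAM E-box.

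Isl1 and Isl2 specify motor and sensory neurons, and Isl1 also acts in the heart. Isl1 (ENSMUSG00000042258.5) lies at chr13:117088478-117099896 on the minus strand with no other protein-coding gene in its window. Its Pou4f3 summits numbered 6 for iPou4f3, 3 for iG+P, 2 for iP+A and 4 for iGPA, and its Atoh1 summits 1, 1, 2 and 2. Isl1 site 7, at the gene start with its highest summit 108 bp upstream, occurred in all 4 Atoh1 lists. The highest Atoh1 fold there was 3.79 (2.59 to 5.35) for iAtoh1, 5.07 (3.61 to 6.94) for iG+A, 4.95 (3.64 to 6.58) for iP+A and 7.72 (5.94 to 9.86) for iGPA. The ranks of 72.8%, 88.4%, 88.4% and 92.4% placed it in the upper part of each list. This site joined summits over 1006 bp, with 2 Atoh1 summits each in iP+A and iGPA. Pou4f3 was at the start in iPou4f3, with a fold of 2.85, and in iGPA, at 2.75, both at ranks of at most 20.1%.

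Isl1 site 3 lay 13.4 kb from the gene start, beyond the end of the gene, and held Pou4f3 peaks in iPou4f3 (4.04), iG+P (2.96) and iGPA (5.97) and a Gfi1 peak (3.91, 2.40 to 6.07). The Gfi1 summit lay 300 bp from the Pou4f3 summit of iGPA, and was joined to this site through the iPou4f3 and iG+P summits at 272 bp and 286 bp. No Atoh1 list had a peak there. Pou4f3 was also found in 3 lists at site 1, 28.7 kb downstream, with folds of 3.45, 3.72 and 4.22 in iPou4f3, iG+P and iGPA. Site 5, in an intron, had Pou4f3 peaks in iG+P, iP+A and iGPA with folds of 2.96, 2.72 and 4.22.

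Isl2 (ENSMUSG00000032318.5) lies at chr9:55386479-55393987 on the plus strand. Its Pou4f3 summits numbered 3, 4, 1 and 3, and Atoh1 had 1 summit, in iGPA. Isl2 site 1, 32.4 kb upstream in an intron of Etfa, had Pou4f3 peaks in iG+P (3.83) and iGPA (5.53) and a Pou4f pattern without mismatch. Isl2 site 6, 7.57 kb downstream of the start, had Pou4f3 peaks in iPou4f3 (3.57) and iG+P (2.63). At Isl2 site 2 called peaks for Atoh1 (2.97) and Pou4f3 (2.94) in iP+A were not among the kept summits.

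Lhx2 and Lhx9 are paralogues expressed in dorsal spinal interneurons, a class that arises from Atoh1-expressing progenitors, and Lhx2 also acts in eye and forebrain development. Lhx2 (ENSMUSG00000000247.4) lies at chr2:38194801-38225253 on the plus strand, with no other protein-coding gene in its window. It had 2, 2, 1 and 2 Atoh1 summits and 2 Pou4f3 summits in each Pou4f3 list. Lhx2 site 8, 78.9 kb downstream of the start, held the highest Atoh1 rank of the member sites in iAtoh1, iG+A and iGPA, and in iP+A its rank of 99.2% was next to 99.3% at Lhx3 site 3. The fold was 8.31 (6.47 to 10.5) for iAtoh1, 9.48 (7.42 to 11.9) for iG+A, 11.2 (9.15 to 13.5) for iP+A and 24.9 (21.6 to 28.5) for iGPA. Its ranks lay between 98.3% and 99.7%, and no Pou4f3 or Gfi1 list had a peak there. The nearest annotated start to this site was that of Gm13589, 5853 bp away. Lhx2 site 5, in an intron 18.1 kb from the start, was the reverse case, with Pou4f3 folds of 8.32, 6.13, 5.77 and 6.12 for iPou4f3, for iG+P, for iP+A and for iGPA and no Atoh1 peak. Atoh1 and Pou4f3 thus occupied separate sites at Lhx2.

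Lhx9 (ENSMUSG00000019230.7) lies at chr1:140721763-140745153 on the minus strand. It had no Atoh1 summit in iAtoh1 or iP+A and 1 each in iG+A and iGPA, both at site 5. This intronic site, 2177 bp from the start, had folds of 3.34 (2.19 to 4.90) and 3.81 (2.61 to 5.39) and an AtEAM E-box. Pou4f3 summits at Lhx9 numbered 1, 4, 2 and 3. Lhx9 site 1, 47.4 kb downstream, was in 3 Pou4f3 lists with folds of 2.85 for iG+P, 2.83 for iP+A and 3.93 for iGPA. No Pou4f3 peak at Lhx9 ranked above 41.9% of its list.

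Lhx1, the paralogue of Lhx5, acts in head and kidney development. Lhx1 (ENSMUSG00000018698.7) lies at chr11:84331479-84338923 on the minus strand. Pou4f3 summits numbered 3, 3, 2 and 2, and Atoh1 had 1 summit in iG+A and 1 in iGPA. Lhx1 site 3 lay in the first part of the neighbouring gene Aatf, 139 bp from its start, with Pou4f3 folds of 4.10 for iPou4f3, 2.63 for iG+P and 3.17 for iGPA and an Atoh1 fold of 2.67 for iG+A. Called peaks at this site for Atoh1 in iGPA (3.20) and for Pou4f3 in iP+A (2.72) were not among the kept summits. Lhx1 site 6, 94 bp upstream of the Lhx1 start, had an Atoh1 peak in iGPA (2.95) and Pou4f3 peaks in iG+P (3.06) and iP+A (2.72). Lhx5 (ENSMUSG00000029595.5), at chr5:120881895-120891466 on the plus strand, had no peak within 50 kb. Within 100 kb all 10 members, Lhx5 included, had an Atoh1 summit and a Pou4f3 summit in some list.

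Lhx6 and Lhx8 act in interneurons and cholinergic neurons of the forebrain. Lhx6 (ENSMUSG00000026890.11) lies at chr2:35937470-35960928 on the minus strand. It had 0, 2, 2 and 2 Atoh1 summits and 3, 4, 2 and 4 Pou4f3 summits. The Atoh1 summits in iG+A and iP+A were at Lhx6 site 1 and Lhx6 site 6. Site 1 lay 4 bp from the start of Ndufa8 and site 6 lay 12 bp from that of Rbm18. Assigned by nearest start, Lhx6 had 0, 0, 0 and 1 Atoh1 summits. Lhx6 site 2, in an intron of Morn5 45.7 kb from the Lhx6 start, was in all 4 Pou4f3 lists with folds of 4.75 for iPou4f3, 5.47 for iG+P, 3.28 for iP+A and 6.84 for iGPA. Lhx6 site 4, 6.88 kb upstream of the start, was also in all 4, with folds of 5.47, 3.28, 2.83 and 4.22 in the same order. No Lhx6 site held kept summits of both Atoh1 and Pou4f3. Called Pou4f3 peaks at Lhx6 site 6 in iPou4f3 (2.51) and at Lhx6 site 1 in iG+P (2.43), both beside Atoh1 summits, were not among the kept summits. A further called iPou4f3 peak (2.39), next to Lhx6 site 1, was also left out. Lhx8 (ENSMUSG00000028201.5) lies at chr3:153969260-153993615 on the minus strand and had 2 sites, the fewest of the members with any. Lhx8 site 1, in an untranslated exon 72 bp from an annotated start of the gene, had Atoh1 folds of 3.23 (2.20 to 4.59) in iP+A and 3.20 (2.11 to 4.66) in iGPA. Pou4f3 folds there were 4.28 for iPou4f3, 2.63 for iG+P and 3.06 for iGPA.

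**Figure D4:**
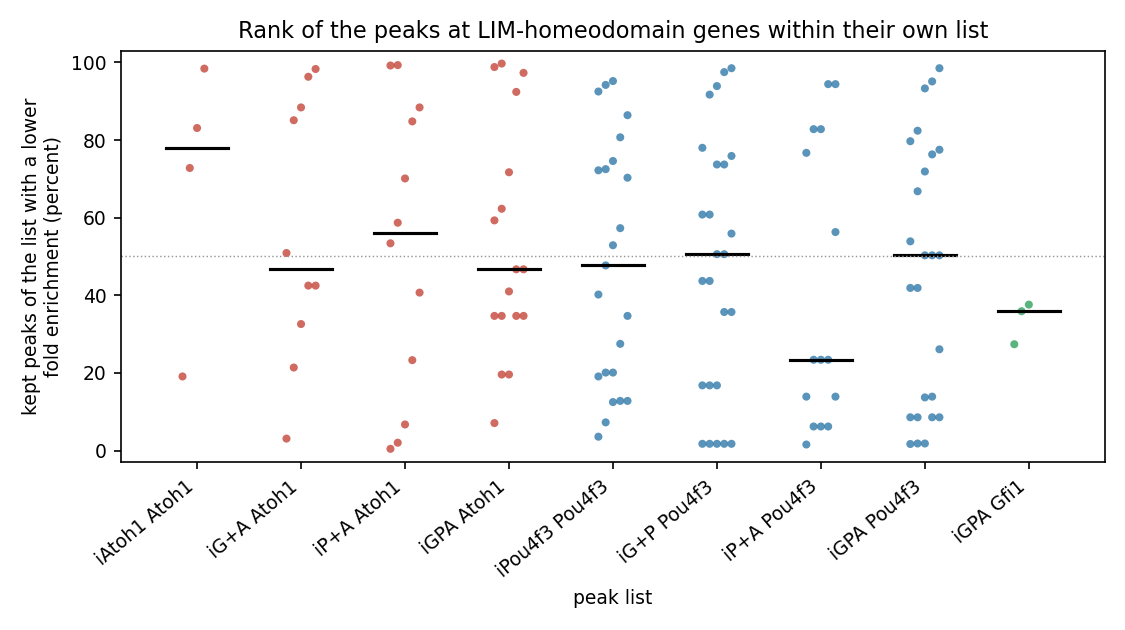
Rank of each kept peak at the LIM-homeodomain genes within its own list, as the percent of kept peaks in that list with a lower fold enrichment, with a black line at the median. The 3 Gfi1 peaks lie between 27.4 and 37.6, while the Atoh1 peaks in iGPA range from 7.09 to 99.7.

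The ranks of the member peaks covered nearly the whole range of most lists. The median rank was 78.0% for the 4 Atoh1 peaks in iAtoh1, 46.7% for iG+A, 56.1% for iP+A and 46.7% for iGPA. For Pou4f3 it was 47.7% for iPou4f3, 50.6% for iG+P, 23.4% for iP+A and 50.3% for iGPA. In the iGPA Atoh1 list 4 of the 17 member peaks ranked above 90% of the list, namely those at Lhx2 site 8, Lhx3 site 2, Lhx3 site 3 and Isl1 site 7. No member peak had a local background above 2 times the usual value of its list.

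At the member sites the sharing between lines was compared with that of all sites. Of 16 iGPA Atoh1 sites, 3 (18.8%, exact binomial 95% interval 4.05 to 45.6) were in the iAtoh1 list, against 32.0% of all iGPA Atoh1 sites. The 3 were Lhx2 site 8, Lhx3 site 3 and Isl1 site 7. Counting these 3 again, 7 of 16 (43.8%, 19.8 to 70.1) were in iG+A against 42.3%, and 6 of 16 (37.5%, 15.2 to 64.6) were in iP+A against 42.7%. Of 25 iGPA Pou4f3 sites, 12 (48.0%, 27.8 to 68.7) were in iPou4f3 against 59.2%, 17 (68.0%, 46.5 to 85.1) in iG+P against 71.9% and 11 (44.0%, 24.4 to 65.1) in iP+A against 49.2%. Each share over all sites lay within the interval of the members.

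Atoh1 and Pou4f3 in the same line shared few of the member sites, with lists that were called against the same merged inputs. In iGPA 4 of 16 Atoh1 sites (25.0%, 7.27 to 52.4) also had Pou4f3, against 16.0% of all, and these were 4 of 25 Pou4f3 sites (16.0%, 4.54 to 36.1) against 21.9%. The 4 were Lhx3 site 2, Lhx3 site 3, Lhx8 site 1 and Isl1 site 7. In iP+A 3 of 11 Atoh1 sites (27.3%, 6.02 to 61.0) had Pou4f3 against 24.2%, or 3 of 15 Pou4f3 sites (20.0%, 4.33 to 48.1) against 26.6%. The 3 were Lhx3 site 2, Lhx3 site 3 and Lhx4 site 3. At Lhx4 site 3 the iP+A summits of Atoh1 (chr1:157551482) and Pou4f3 (chr1:157551155) were joined only through summits of other lists. The 2 Lhx3 sites were the member sites shared by the factors in both lines.

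**Figure D5:**
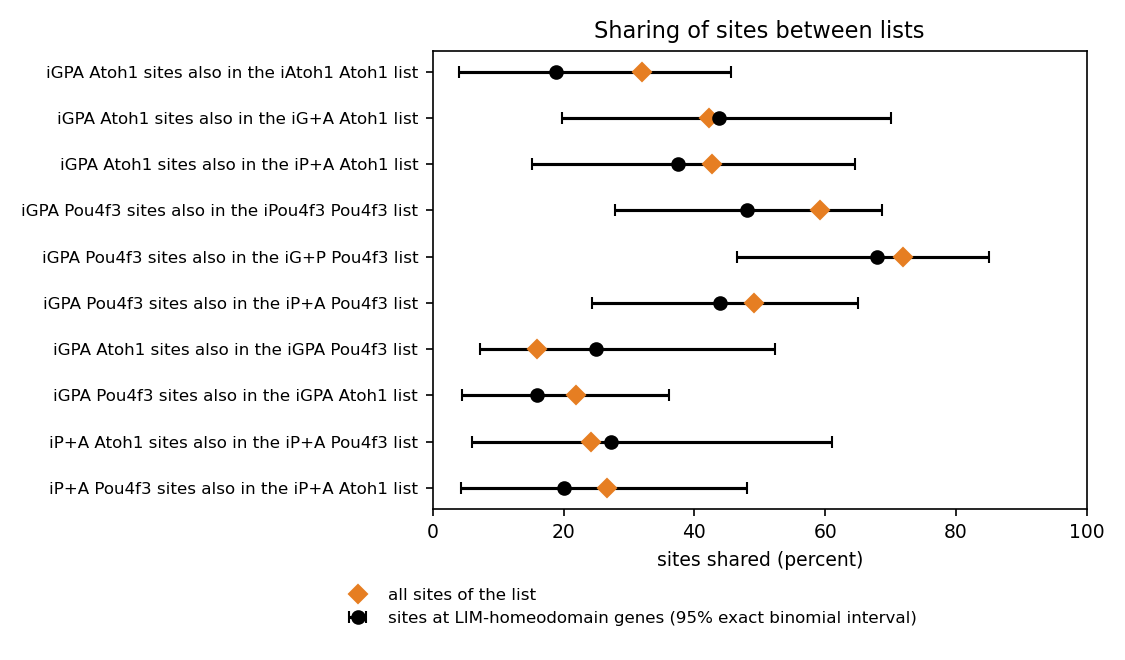
Percent of sites of the first-named list that are also in the second, for sites at LIM-homeodomain genes (black, with 95% exact binomial intervals) and for all sites of the list (orange). The orange value lies within the black interval in each row, for example 32.0% against 18.8% for iGPA Atoh1 sites in the iAtoh1 list.

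Sites in many lists were few. At least 5 lists shared 5 of the 59 member sites (8.47%), beside 6.67% of all sites. These were Lhx3 site 2, Lhx3 site 3, Lhx4 site 3, Lhx8 site 1 and Isl1 site 7. A single list gave 28 member sites (47.5%, against 46.9% of all sites). By factor, 34 member sites (57.6%) had only Pou4f3 peaks against 41.8% of all sites, 15 (25.4%) only Atoh1 peaks against 37.5%, and 9 (15.3%) both against 18.2%. The Gfi1 peak overlapped Pou4f3 peaks at Lhx3 site 2 and Lhx4 site 3, and an Atoh1 peak of the same line at Lhx3 site 2 alone. At Isl1 site 3 the Gfi1 peak overlapped no Pou4f3 peak. In position, 27 sites were intergenic and 20 intronic, with no share of all sites given. Within 1 kb of an annotated gene start lay 20 sites (33.9%, against 21.2% of all sites). A member had the nearest annotated start at 34 of the 59 sites.

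The AtEAM E-box was present within the 250 bp windows of 6 of 59 member sites (10.2%, exact binomial 95% interval 3.82 to 20.8), beside 8.93% of all sites. All 6 had an Atoh1 peak, and 4 of them (Lhx3 sites 1, 2, 3 and 8) were at Lhx3, the others being Lhx4 site 7 and Lhx9 site 5. The Pou4f pattern was in 16 member sites (27.1%, 16.4 to 40.3), beside 24.8%, and each of these sites had a Pou4f3 peak. Without a mismatch ATAATTAAT was in 8 (13.6%, 6.04 to 25.0), beside 4.03% of all sites. Among the 34 member sites with only Pou4f3, 14 held the Pou4f pattern (41.2%, 24.6 to 59.3) against 47.2% of all such sites, and 0 held the AtEAM E-box against 1.26%. The pattern without mismatch was in 7 of these 34 (20.6%, 8.70 to 37.9), against 8.75% of all such sites. Among the 15 with only Atoh1, 4 held the AtEAM E-box (26.7%, 7.79 to 55.1) against 18.8%, and 0 held the Pou4f pattern against 4.93%. Near gene starts, at no more than 1 kb, 1 of 20 member sites (5.00%) held the Pou4f pattern, against 15 of 39 (38.5%) farther away. Over all sites these shares were 6.95% and 29.6%. The Gfi1 pattern (AATCACAGC or AATCACTGC) was in 0 member sites, beside 0.730% of all sites. These windows were centred on the highest summit, and the Gfi1 summits of Lhx4 site 3 and Isl1 site 3 lay outside them. In 250 bp around the Gfi1 summits themselves, a search added after the data were seen, the pattern was at 0 of the 3 members' summits and at 7.01% of all 3012 Gfi1 summits.

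Lhx3 was set beside the other genes by its 9 summit counts, leaving out genes whose windows overlapped its own. The closest gene was Ccl24, whose counts differed by 2 summits in sum over the lists, followed by Adrbk2 with a difference of 3, and Bre, Psmb2 and Tbc1d9 with a difference of 4. Ccl24 had 1, 1, 4 and 5 Atoh1 summits, 1, 1, 2 and 2 Pou4f3 summits and 1 Gfi1 summit, next to 1, 1, 4 and 6, 1, 1, 2 and 3, and 1 at Lhx3.

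Of the other genes of the LIM network, Lmx1a and Lmx1b are further LIM-homeodomain genes, Lmo1 to Lmo4 encode LIM-only proteins, and Ldb1, Ldb2, Ssbp2, Ssbp3, Ssbp4 and Rlim encode cofactors of LIM domains or, for Rlim, a ubiquitin ligase acting on them. Atoh1 summits were found at 10 of these 12 genes in iAtoh1, 9 for iG+A, 11 for iP+A and 10 for iGPA. The shares of all genes in these lists were 53.1%, 65.7%, 62.7% and 72.2%. Pou4f3 summits were found at 9, 11, 10 and 9 for iPou4f3, for iG+P, for iP+A and for iGPA, and Gfi1 at 5. Over all genes the shares were 72.8%, 76.6%, 58.8% and 63.2% for Pou4f3 and 23.2% for Gfi1. In iAtoh1 this was 10 of 12 cofactor and related genes next to 3 of 10 members, and Lmx1a and Lmo3 were the genes without a summit. Windows measured 107445 to 140331 bp among the members and up to 427575 bp at Ldb2. Of the 12 genes, 6 had windows in the range of the members (Lmo1, Lmo2, Lmo4, Ldb1, Ssbp4 and Rlim), and all 6 had an iAtoh1 summit. Ssbp3 and Lmx1b had the highest totals with 45 summits each over the 9 lists. Ssbp3 had 3, 7, 6 and 12 Atoh1 summits and Lmx1b 1, 5, 3 and 8, next to 1, 1, 4 and 6 at Lhx3. Rlim had 1 summit, in iAtoh1.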

How the data were processed

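ChIP-seq peak lists for Atoh1, Pou4f3 and Gfi1 in induced EBs were analysed. The authors trimmed reads with Trimmomatic, aligned them to mm9 with Bowtie 2 and removed duplicates, poorly mapped reads and reads in blacklisted regions. MACS 2 then compared merged ChIP replicates with merged inputs. Tool versions are not given in the sources used here. The deposited peak tables give the fold enrichment at the summit (a ratio to local background), its −log10 p-value and the summit position. The deposited summit tables name the peaks that the authors kept (3012 to 32632 per list, 14.1% to 35.5% of called peaks left out), and how these were chosen is not stated. A score column of the summit tables was not used.

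Kept summits were assigned to genes of GENCODE M1 on NCBIM37, the same assembly as mm9. The fragment count and background at each summit were recovered from fold and p (tolerance 0.001, 99.40% to 99.97% of peaks per list), which gave exact Poisson intervals. Reads per library are unknown from the files, and with usual backgrounds of 3.55 (Gfi1) to 8.30 fragments the list medians of fold were 2.96 to 4.40. Fold is not comparable between lists, so ranks within a list were used. Motifs were searched in 250 bp on both strands. Printed windows hold at most 30 bases of annotated UTR, and 1 site of the named set is not reported here. Python 3.11.15 with numpy 2.4.6, pandas 2.3.3 and scipy 1.17.1 was used, and scripts were tested on simulated data. No test was made, since each line and antibody has 1 list.

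All 10 members are named. Named sites were, per member, the one in most lists, any with a Gfi1 peak, and the one of highest rank with Atoh1 in iP+A and iGPA but not in iAtoh1 and iG+A. The genes most like Lhx3 were the 5 with the smallest summed difference in counts, among genes whose windows did not overlap that of Lhx3. Other sites were described after their values were seen. The members and lists were chosen with earlier results of these data known. Alternatives were other distances, nearest-start assignment, all called peaks, stricter p-values, equal list lengths, other joining windows and other motif settings.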

Additional observations from a re-analysis of the deposited data

How the results depend on the processing

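No paired analysis was possible because replicates were merged before peaks were called, and for the same reason no replicate was left out. Of 125 values recomputed under other settings, 75 stayed within 1.5 times the count or within the interval of the share, and 50 moved. With all called peaks, nearest-start assignment, joined windows of 1000 bp, a motif window of 100 bp or, added after the data were seen, a Gfi1 motif window around the Gfi1 summits every recomputed value stayed within those limits. For nearest-start assignment these were 6 values, the members with a summit and the summit totals per factor. Comparisons between lines were not recomputed under it. By nearest start the Atoh1 summits numbered 1, 2, 2 and 7 at Lhx1 and 0, 0, 0 and 1 at Lhx6. Leaving out summits in tandem repeats removed no member summit, and so says nothing about the repeat runs at Lhx4 site 3 and Lhx9 site 7.

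Within 10 kb the Atoh1 lists held 19 summits and the Pou4f3 lists 48, with 31 sites of which 3 were in at least 5 lists, 2 members with more Atoh1 summits in iG+A than in iAtoh1, and 1, 0 and 0 with more Pou4f3 summits in iG+P, iP+A and iGPA. Within 100 kb there were 83 Atoh1 summits and 94 sites, 8 in at least 5 lists, and 5 and 1 members with more Pou4f3 summits in iG+P and iP+A. In gene bodies alone 4 members had Atoh1, with 6 summits, Pou4f3 had 25 summits, and Gfi1 had 1 summit at 1 member. At a −log10 p of at least 10, 5 members had Atoh1, with 19 summits, Pou4f3 had 35 and Gfi1 0 at 0 members, in 24 sites with 2 in at least 5 lists. More Atoh1 summits were then held by 1, 1 and 4 members in iG+A, iP+A and iGPA, and more Pou4f3 summits by 1 in iG+P and 1 in iP+A. At 20, 3 members had Atoh1, with 9 summits, Pou4f3 had 17 and Gfi1 0 at 0. With equal list lengths Pou4f3 had 57 summits, and 4 members held more Atoh1 summits in iGPA and 4 more Pou4f3 summits in iP+A. For the other distances, p-values and list lengths no share of all genes is given beside these member counts. Joined windows of 100 bp left 3 sites in at least 5 lists. The E-box core was in 37.3% of member sites, and the Pou4f pattern without mismatch in 13.6%. Over all annotated genes the share with a summit was lower in each list, at 20.1% to 70.9%. Low fragment counts at most sites limit the lists, since a line without a peak may hold a signal under the threshold.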
